A study of Mus musculus with 12 samples.

Results

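Chromatin accessibility was described across the Cebpa locus, taken as all open chromatin regions of the deposited table that lie on mouse chromosome 7 from 35090000 to 35200000 (GRCm38). This window of 110 kb held 22 of the 121336 regions (0.0181%), chosen by position alone. It covers the Cebpa gene (35119293 to 35121928, plus strand), sequence upstream of it, and the sequence downstream into Slc7a10 (35186385 to 35201114). Accessibility was measured by ATAC-seq, in which a transposase cuts and tags open DNA, in cells sorted from adult mouse bone marrow. One sorted population was LSK (Lin- Sca-1+ c-Kit+), which holds stem cells and early progenitors, and the other was GMP, the granulocyte-monocyte progenitors. The donors were either WT or UREd/d mice, littermates on a C57BL/6 background, and each genotype and cell type had 3 libraries (WT-LSK and URE-LSK, WT-GMP and URE-GMP). UREd/d mice lack the upstream regulatory element that serves Spi1, the gene for the transcription factor PU.1, in all cells and not only in blood. The labels name no other allele and no treatment.

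Cebpa encodes C/EBP alpha, a basic leucine zipper factor that is required for granulocyte-monocyte progenitors to form and for neutrophil genes to be expressed. Its expression in early blood cells depends on an enhancer far downstream of the gene, which ETS factors such as PU.1, RUNX1 and C/EBP proteins bind in myeloid cells. PU.1 itself opens chromatin at many myeloid enhancers and shares many of them with C/EBP alpha.

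Regions are named by the distance of their centre from the Cebpa start site, with downstream positive. The promoter region (35118008 to 35120234) covered the start site and also that of the antisense transcript Gm45091, 2 regions lay upstream and 19 downstream. Of the 22 regions, 18 were intergenic, 2 lay in an intron of the lincRNA gene Gm35665 and 1 lay in the Cebpa exon. Widths ran from 238 to 2227 bp. Between 35 and 39 kb downstream, the interval used here for the downstream enhancer, lay the regions at +37.8 kb (35156283 to 35157969, intergenic) and +35.3 kb (35154210 to 35154931, intergenic).

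The central 300 bases of 6 regions are given from the GRCm38 sequence, plus strand. The promoter and the +37.8 kb region are the gene's start and its downstream enhancer. The other 4 were picked from those with large differences between genotypes or cell types, and are not the largest by rank. The -19.6 kb region, with the lowest log2 fold change of URE over WT in both cell types, is not printed. Capitals mark matches on either strand to the PU.1 motif GAGGAA, the RUNX motif TGTGGT, the C/EBP motif TTGCNNAA, the GATA motif AGATAA or the E-box CAGCTG, each printed as the plus strand reads.
Cebpa promoter, chr7:35118972-35119271: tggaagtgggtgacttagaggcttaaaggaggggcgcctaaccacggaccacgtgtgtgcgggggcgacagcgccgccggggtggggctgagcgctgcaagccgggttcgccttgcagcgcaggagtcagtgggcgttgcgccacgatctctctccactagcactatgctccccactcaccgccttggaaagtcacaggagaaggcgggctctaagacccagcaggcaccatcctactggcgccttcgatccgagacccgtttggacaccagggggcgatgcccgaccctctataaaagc
+37.8 kb, chr7:35156977-35157276: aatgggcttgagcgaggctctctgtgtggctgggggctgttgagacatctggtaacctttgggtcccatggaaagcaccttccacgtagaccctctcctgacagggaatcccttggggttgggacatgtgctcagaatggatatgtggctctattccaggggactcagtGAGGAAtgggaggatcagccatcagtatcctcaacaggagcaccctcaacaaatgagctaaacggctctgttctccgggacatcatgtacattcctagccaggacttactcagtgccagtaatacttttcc
-20.3 kb, chr7:35098796-35099095: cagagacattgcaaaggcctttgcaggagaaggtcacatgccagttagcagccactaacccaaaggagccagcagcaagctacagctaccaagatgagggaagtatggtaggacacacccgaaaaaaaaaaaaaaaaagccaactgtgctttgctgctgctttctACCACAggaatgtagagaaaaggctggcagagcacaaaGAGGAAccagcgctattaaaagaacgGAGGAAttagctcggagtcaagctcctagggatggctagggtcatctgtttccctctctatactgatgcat
+31.7 kb, chr7:35150890-35151189: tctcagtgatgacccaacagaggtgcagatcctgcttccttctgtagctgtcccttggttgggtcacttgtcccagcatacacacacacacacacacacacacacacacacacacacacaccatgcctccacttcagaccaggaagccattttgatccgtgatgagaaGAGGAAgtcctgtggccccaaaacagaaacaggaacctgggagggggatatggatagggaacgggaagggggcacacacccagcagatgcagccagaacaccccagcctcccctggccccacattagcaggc
+33.2 kb, chr7:35152310-35152609: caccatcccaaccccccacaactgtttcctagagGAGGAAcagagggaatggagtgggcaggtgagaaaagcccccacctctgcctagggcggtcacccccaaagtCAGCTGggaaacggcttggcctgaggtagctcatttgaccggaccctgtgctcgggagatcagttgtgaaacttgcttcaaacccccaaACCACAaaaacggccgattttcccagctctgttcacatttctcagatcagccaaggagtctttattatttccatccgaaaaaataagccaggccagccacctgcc
+47.9 kb, chr7:35166998-35167297: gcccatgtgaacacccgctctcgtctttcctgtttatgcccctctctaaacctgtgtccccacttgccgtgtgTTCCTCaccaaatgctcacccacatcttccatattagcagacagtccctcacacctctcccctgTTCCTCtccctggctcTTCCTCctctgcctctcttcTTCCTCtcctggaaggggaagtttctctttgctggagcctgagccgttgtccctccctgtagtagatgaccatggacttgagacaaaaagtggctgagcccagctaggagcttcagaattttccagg

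In these central 300 bases the PU.1 motif was held by 12 of the 22 regions, against 39.7% of all regions in the table. For a region narrower than 300 bases, as at +47.9 kb (266 bp), the stretch runs past the region's edges. RUNX was held by 9 (33% of all regions), the E-box by 5 (20.5%), C/EBP by 4 (16.4%) and GATA by 1 (12.9%). The promoter stretch held none of the 5 motifs, and neither did that of the -19.6 kb region. The -20.3 kb stretch held 2 PU.1 matches and 1 RUNX match, and the +47.9 kb stretch held 4 PU.1 matches, more than any other member. The +37.8 kb stretch held 1 PU.1 match, whereas the whole region of 1687 bp held 3 for PU.1, 4 for RUNX, 1 for C/EBP and 2 for the E-box. A match describes letters only, and binding was not measured.

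Libraries held 23072701 to 62204826 counts. Levels are given as CPM, counts brought to the same library total with TMM factors, and 3 counts stood for 0.052 to 0.126 CPM. The deleted element was checked first, at its strongest region (chromosome 2, 91082790 to 91083700), which held 36 to 46.2 CPM over the WT libraries and at most 6 counts in any URE library. In bulk cells, a region open in fewer cells and a region less open in each cell cannot be told apart.

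The Cebpa promoter was open in all 4 groups. The WT-LSK libraries held 75.7, 78.7 and 70.4 CPM and their URE-LSK counterparts 74.1, 75.8 and 74.6. Its WT-GMP values were 136, 106 and 109 CPM, and 135, 140 and 139 CPM were found for URE-GMP. All GMP libraries lay above all LSK libraries, and within each cell type the genotypes overlapped. URE over WT came to -0.0006 (SE 0.08, adjusted p = 0.995) on the log2 scale in LSK, from edgeR's quasi-likelihood F test adjusted by Benjamini-Hochberg over all regions, as for every adjusted p here. For GMP it came to 0.24 (SE 0.08, adjusted p = 0.0183). A region is called where its adjusted p is under 0.05 and its absolute log2 fold change over 1, so the promoter was called in neither. The GMP value was 0.32 (adjusted p = 0.000367) without WT-GMP replicate 1, the one WT-GMP library at the URE level, and -0.02 (adjusted p = 0.815) with loess offsets. With those offsets the LSK value was -0.31 (adjusted p = 0.000982). GC content offsets gave -0.25 (adjusted p = 0.00857) in LSK and 0.10 (adjusted p = 0.269) in GMP.

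The +37.8 kb region of the downstream enhancer had more signal in every GMP library than in any LSK library, as the promoter did. Its WT-LSK values were 33.2, 34.5 and 37 CPM, and 26.6, 27.7 and 35.6 CPM were found for URE-LSK. For GMP, WT libraries gave 63.9, 54.2 and 58.4 CPM and URE libraries 77.6, 79.4 and 85.8. The LSK genotypes overlapped through URE-LSK replicate 3, whereas all URE-GMP libraries lay above all WT-GMP libraries. URE over WT came to -0.22 (SE 0.10, adjusted p = 0.0831) in LSK, to 0.09 (adjusted p = 0.449) with GC content offsets and to -0.45 (adjusted p = 0.00264) with loess offsets. For GMP it came to 0.46 (SE 0.10, adjusted p = 0.001), a fold of 1.38 that is under the limit for a call, and to 0.26 (adjusted p = 0.045) with loess offsets. Per kb of width, the region averaged 20.7 CPM for WT-LSK and 48 CPM for URE-GMP, beside 33.6 and 62 CPM per kb for the promoter.

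The neighbouring region at +35.3 kb averaged 1.93 CPM per kb in WT-LSK. For LSK, WT libraries gave 1.02, 1.75 and 1.41 CPM and URE libraries 1.88, 1.98 and 4.31. WT-GMP libraries held 7.78, 4.89 and 5.46 CPM and URE-GMP libraries 11.7, 9.84 and 13.1. Every URE library lay above every WT library of its cell type, with URE-LSK replicate 3 well above the other URE-LSK libraries. The differences of 0.99 (SE 0.32, adjusted p = 0.0137) in LSK and 0.95 (SE 0.28, adjusted p = 0.0084) in GMP were just under the fold limit. The LSK difference rested on URE-LSK replicate 3, and was 0.49 (adjusted p = 0.144) without it and 0.75 (adjusted p = 0.0932) without WT-LSK replicate 1. With RLE size factors both were called, at 1.04 and 1.01, as they were with loess offsets, GC content offsets or DESeq2. Without WT-GMP replicate 1 the GMP value was 1.12 (adjusted p = 0.00691).

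**Figure D1:**
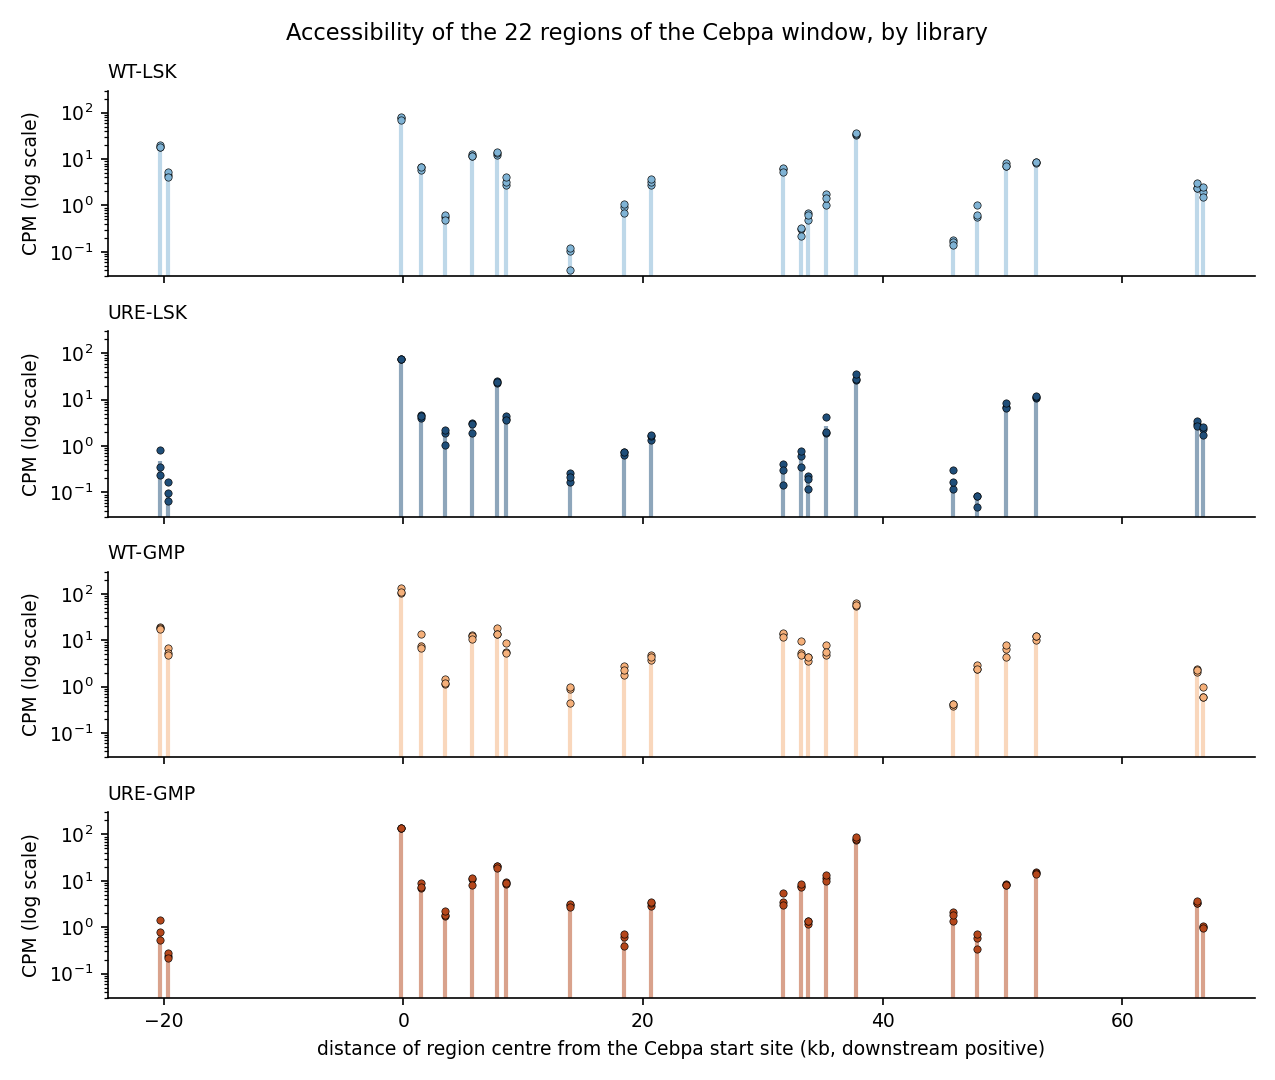
CPM of the 22 regions (log axis) against the distance of their centre from the Cebpa start site in kb, 1 panel for each group, with points for the 3 libraries and a stem up to their mean. The promoter and the +37.8 kb region stand high in all 4 panels, and the pair at -20.3 and -19.6 kb goes from above 4 CPM in the WT panels to 1.41 CPM or less in the URE panels.

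The largest differences between genotypes lay upstream of the gene, in a pair of intergenic regions at -20.3 kb (35098709 to 35099181) and -19.6 kb (35099537 to 35099867). At the first, the WT-LSK libraries held 18, 20.3 and 18 CPM and their URE-LSK counterparts 0.357, 0.809 and 0.235. Its WT-GMP values were 18.9, 17.9 and 17.6 CPM, and 0.517, 1.41 and 0.8 CPM were found for URE-GMP. No URE library came near the WT range in either cell type. The log2 fold change was -5.37 (SE 0.35, adjusted p = 9.1e-09) in LSK, and in GMP it was -4.29 (SE 0.31, adjusted p = 5.01e-08). Per kb of width the region averaged 39.6 CPM in WT-LSK, where the promoter averaged 33.6.

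The -19.6 kb region was lower in URE too. WT-LSK libraries held 4.43, 5.18 and 4.02 CPM and URE-LSK libraries 0.0952, 0.167 and 0.0641. For GMP, WT libraries gave 6.78, 5.27 and 4.77 CPM and URE libraries 0.237, 0.278 and 0.218. The genotypes were again far apart. The log2 fold change was -5.39 (SE 0.32, adjusted p = 4.32e-09) in LSK, and in GMP it was -4.48 (SE 0.27, adjusted p = 1.24e-08). The 3 URE-LSK libraries held 13 counts in all against 496 in WT-LSK, a scaled ratio of 42.3 with an exact 95% interval from 24.5 to 80.1 that covers counting error only. The printed -20.3 kb stretch held PU.1 and RUNX matches, and the -19.6 kb region held none of the 5 motifs.

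Downstream, the intergenic region at +31.7 kb was lower in URE in both cell types. Its WT-LSK values were 6.14, 6.53 and 5.21 CPM, and 0.143, 0.419 and 0.299 CPM were found for URE-LSK. WT-GMP libraries held 13.3, 14.5 and 11.6 CPM and URE-GMP libraries 3.53, 5.36 and 3.05. No URE library reached the WT range of its cell type, and the URE-GMP libraries came nearer to it than the URE-LSK libraries. The log2 fold change was -4.38 (SE 0.31, adjusted p = 1.79e-08) in LSK, and in GMP it was -1.71 (SE 0.24, adjusted p = 1.46e-05).

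At +33.8 kb, the WT-LSK libraries held 0.682, 0.49 and 0.623 CPM and their URE-LSK counterparts 0.119, 0.223 and 0.192. Its WT-GMP values were 4.35, 3.55 and 4.36 CPM, and 1.18, 1.37 and 1.36 CPM were found for URE-GMP. Every URE library lay below every WT library of its cell type. The region was called lower in both, with -1.76 (SE 0.33, adjusted p = 0.000253) in LSK and -1.64 (SE 0.23, adjusted p = 1.82e-05) in GMP. With loess offsets the values were -0.76 (adjusted p = 0.0654) and -0.80 (adjusted p = 0.00755), under the fold limit.

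The region at +47.9 kb, with its 4 PU.1 matches, was singled out after its values were seen. For LSK, WT libraries gave 0.551, 1.02 and 0.623 CPM and URE libraries 0.0476, 0.0837 and 0.0854. For GMP, WT libraries gave 2.43, 2.85 and 2.37 CPM and URE libraries 0.581, 0.729 and 0.339. The URE libraries lay below the WT libraries throughout, and in LSK they held 9 counts in all against 77, a scaled ratio of 9.49 with an exact 95% interval from 4.75 to 21.5 that covers counting error only, whereas replicates differed by more than counting noise. It was called lower in LSK with -3.25 (SE 0.47, adjusted p = 2.26e-05), and in GMP with -2.19 (SE 0.33, adjusted p = 3.03e-05), the latter at -0.96 (adjusted p = 0.0106) with loess offsets.

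At +5.7 kb (35124740 to 35125310, intergenic) LSK differed. WT-LSK libraries held 12.9, 11.9 and 11.6 CPM and URE-LSK libraries 1.95, 3.15 and 3.03. WT-GMP libraries held 12.9, 12.4 and 10.5 CPM and URE-GMP libraries 10.7, 11.6 and 8.14. The URE-LSK libraries stood apart from all the others, and the GMP genotypes overlapped. The log2 fold change was -2.16 (SE 0.20, adjusted p = 1.68e-07) in LSK, a call, and -0.23 (SE 0.18, adjusted p = 0.288) in GMP, where none was made.

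At +18.4 kb, in the Gm35665 intron, it was GMP that differed. Its WT-LSK values were 0.945, 0.693 and 1.05 CPM, and 0.761, 0.642 and 0.748 CPM were found for URE-LSK. Its WT-GMP values were 1.8, 2.77 and 2.24 CPM, and 0.603, 0.711 and 0.388 CPM were found for URE-GMP. The WT-GMP libraries lay above all the others, and the LSK genotypes overlapped. URE over WT came to -1.99 (SE 0.30, adjusted p = 3.16e-05) in GMP, a call, and -0.34 (SE 0.31, adjusted p = 0.36) in LSK, where loess offsets gave 0.61 (adjusted p = 0.086).

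**Figure D2:**
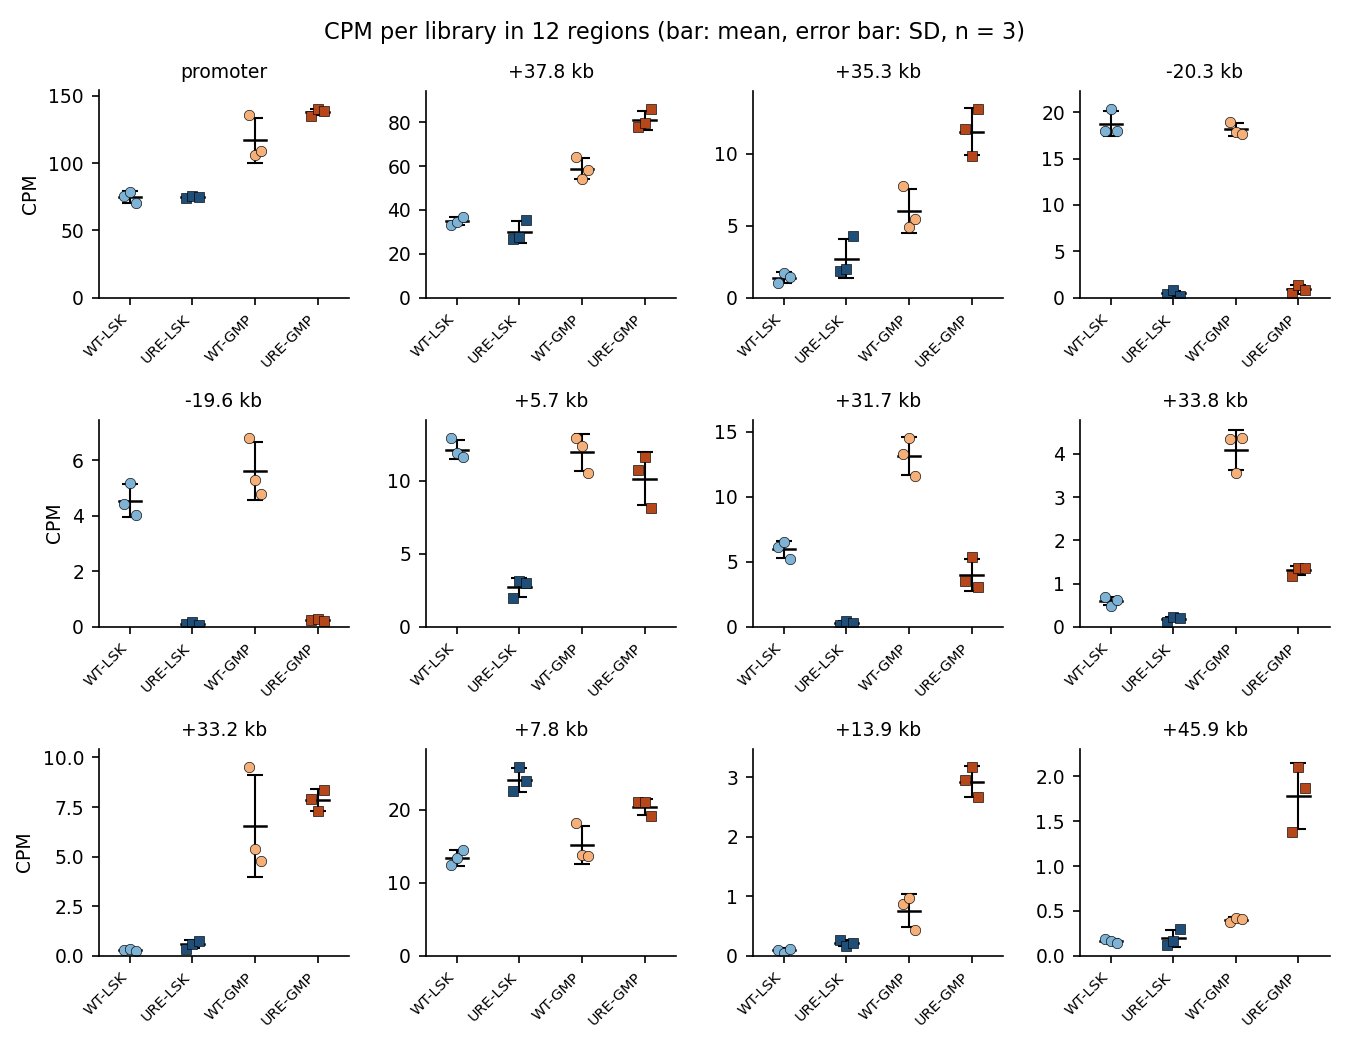
CPM per library in 12 regions, with LSK in blue, GMP in orange, circles for WT and squares for URE, a bar at the group mean and an error bar of 1 SD (n = 3), each panel on its own linear axis from 0. The URE squares lie near 0 at -20.3 and -19.6 kb in both cell types and at +31.7 kb in LSK, while at the promoter and +37.8 kb the GMP libraries lie above the LSK libraries.

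Fewer regions were called higher in URE than lower, 2 in each cell type. At +45.9 kb, the WT-LSK libraries held 0.184, 0.163 and 0.141 CPM and their URE-LSK counterparts 0.119, 0.167 and 0.299. For GMP, WT libraries gave 0.377, 0.42 and 0.415 CPM and URE libraries 1.38, 2.1 and 1.87. The URE-GMP libraries lay above all the others, and the LSK genotypes overlapped. It was called higher in GMP with 2.13 (SE 0.34, adjusted p = 5.82e-05). In LSK the value was 0.30 (SE 0.47, adjusted p = 0.603), at -0.18 (adjusted p = 0.796) without URE-LSK replicate 3 and at 1.41 (adjusted p = 0.0138) with loess offsets.

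At +13.9 kb, the WT-LSK libraries held 0.105, 0.0408 and 0.121 CPM and their URE-LSK counterparts 0.262, 0.167 and 0.214. WT-GMP libraries held 0.879, 0.965 and 0.438 CPM and URE-GMP libraries 2.95, 3.17 and 2.67. The genotypes did not overlap in either cell type, but the WT-LSK libraries held only 11 counts in all. It was called higher in GMP with 1.96 (SE 0.31, adjusted p = 6.29e-05). In LSK the value was 1.14 (SE 0.51, adjusted p = 0.0701), where GC content offsets gave 1.61 (adjusted p = 0.0108) and loess offsets 2.38 (adjusted p = 0.000618), both calls. Loess offsets took the GMP value to 3.30 (adjusted p = 3.85e-07).

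In LSK the regions at +3.5 and +33.2 kb were called higher. At the first, the WT-LSK libraries held 0.551, 0.612 and 0.483 CPM and their URE-LSK counterparts 1.9, 1.03 and 2.26, a log2 fold change of 1.68 (SE 0.31, adjusted p = 0.000237). At the second, the WT-LSK libraries held 0.315, 0.326 and 0.221 CPM and their URE-LSK counterparts 0.357, 0.614 and 0.769, a log2 fold change of 1.05 (SE 0.39, adjusted p = 0.0317). The genotypes did not overlap at either, by a narrow gap at +33.2 kb. The call at +33.2 kb was lost without any 1 of the 6 WT libraries, or without replicates 2 or 3 of URE-LSK, and was lowest without URE-LSK replicate 3, at 0.77 (adjusted p = 0.152).

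The region at +7.8 kb, among the 3 with the highest mean CPM, was higher in URE by less than the fold limit. For LSK, WT libraries gave 12.4, 13.4 and 14.5 CPM and URE libraries 22.5, 25.8 and 23.9. Its WT-GMP values were 18.2, 13.8 and 13.6 CPM, and 21.1, 21 and 19.1 CPM were found for URE-GMP. The genotypes did not overlap in either cell type. The log2 difference was 0.84 (SE 0.12, adjusted p = 2.94e-05) in LSK and 0.43 (SE 0.12, adjusted p = 0.00706) in GMP, and with GC content offsets LSK reached 1.25 (adjusted p = 6.75e-07).

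Over the whole window, 9 of 22 regions were called between genotypes in LSK, 2 of them higher in URE, where 13.6% of all regions tested were, and 7 lower, where 23.9% of all regions were. In GMP 8 were called, 2 higher against 15.6% of all regions and 6 lower against 24.1%. The seventh lower call in LSK was an intronic region of Gm35665 at +20.7 kb, whose log2 fold change of -1.01 (SE 0.20, adjusted p = 0.000508) lay on the limit. That call was lost with DESeq2, RLE, loess or GC offsets, with glmTreat, and without WT-LSK replicate 3 or URE-LSK replicate 1. The split moved with the scaling, among the members and over all regions. In LSK it was 5 higher and 5 lower with loess offsets, 5 and 6 with GC content offsets and 3 and 6 with RLE size factors, and in GMP 4 and 4 with loess offsets. Of the calls over all regions in LSK, 36.2% were higher, and 52.5% with loess, 51.9% with GC content and 38.1% with RLE. In GMP 39.4% were higher, and 54.5% with loess offsets. Without the fold limit, 5 members were higher and 8 lower in LSK, beside 27.9% and 28.9% of all regions. In GMP 9 were then higher and 6 lower, beside 29.6% and 31.2%. The median log2 fold change of the members was -0.01 in LSK and 0.30 in GMP, beside 0.14 and 0.06 over all regions. Among the members without a named value, +1.5, +8.6, +50.3, +52.8, +66.2 and +66.7 kb lay between -0.57 and 0.61 in both genotype contrasts. The windows of the same length just before and after held 15 and 7 regions, of which 6 and 1 were called in LSK and 7 and 1 in GMP.

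**Figure D3:**
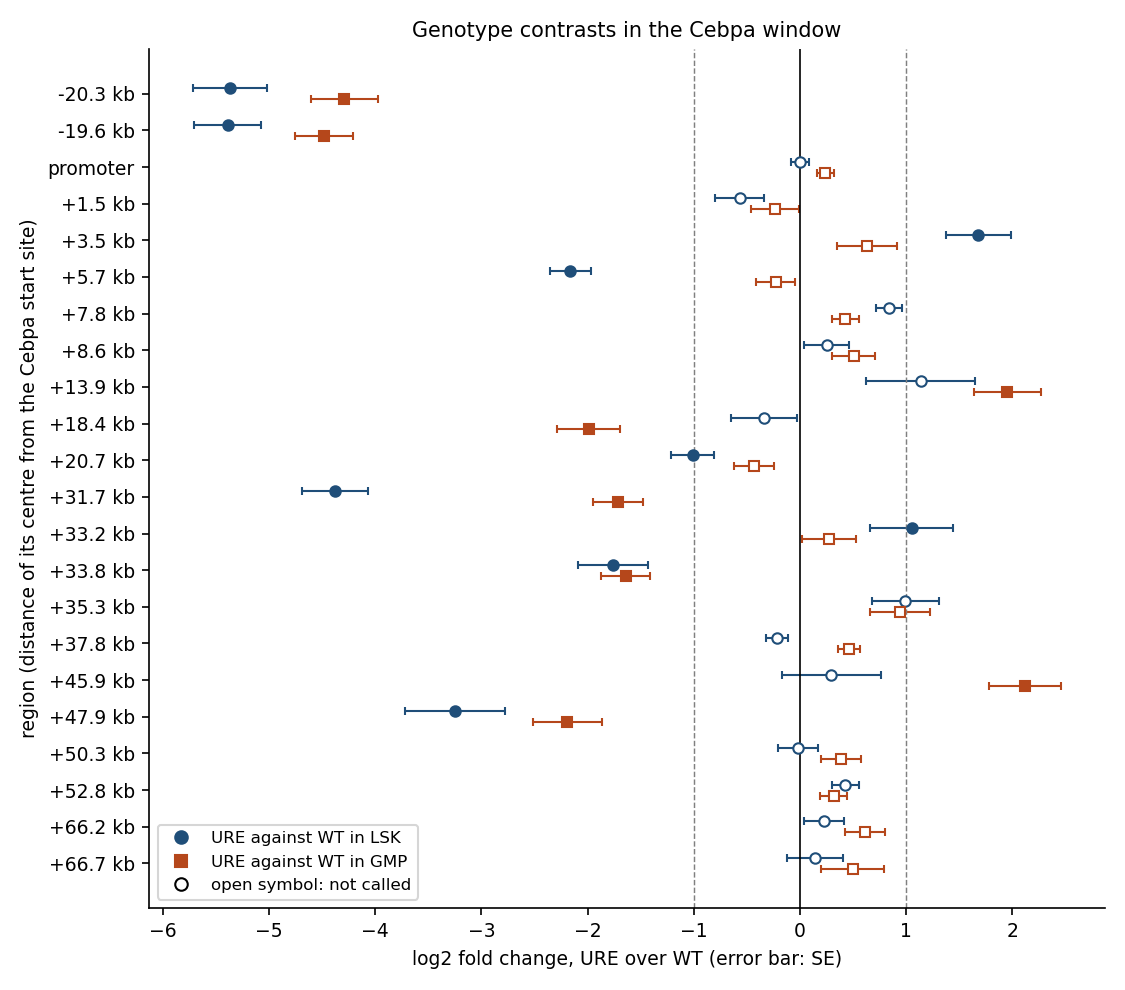
log2 fold change of URE over WT in LSK (blue circles) and GMP (orange squares) for the 22 regions in order along the chromosome, with SE as error bars, filled symbols for called regions and dashed lines at the fold limit. The 2 upstream regions lie farthest to the left in both cell types, and the promoter lies at -0.0006 in LSK and 0.24 in GMP.

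From LSK to GMP most called regions were more open. In WT 10 of 22 were called, 9 higher in GMP, where 21% of all regions tested were, and 1 lower, against 16.8%. In URE 14 were called, 13 higher against 27.6% of all regions and 1 lower against 21.6%. The median log2 fold change over the members was 0.70 in WT and 1.11 in URE, beside -0.01 and 0.03 over all regions. Of the 15 regions in the window before, 5 were called higher in WT and 9 in URE, with none lower. Of the 7 in the window after, 0 were called in WT and 2, both higher, in URE, with medians of 0.06 and -0.01. These steps share their libraries with the genotype contrasts, so the values are given side by side.

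The promoter step was 0.64 (SE 0.08, adjusted p = 1e-05) in WT and 0.88 (SE 0.08, adjusted p = 1.57e-07) in URE, under the fold limit in both. Without WT-GMP replicate 1 the WT step was 0.46 (adjusted p = 3.18e-05), and GC content offsets gave 1.06 (adjusted p = 1.29e-08) in URE. At +37.8 kb the step was 0.75 (SE 0.10, adjusted p = 1.82e-05) in WT, under the limit, and 1.43 (SE 0.10, adjusted p = 1.66e-08) in URE, a call. At +35.3 kb it was called in both, at 2.12 (SE 0.31, adjusted p = 3.59e-05) in WT and 2.07 (SE 0.29, adjusted p = 1.1e-05) in URE. At both regions, all GMP libraries lay above all LSK libraries of their genotype.

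The steepest step in WT was at +33.2 kb, whose printed stretch held PU.1, RUNX and E-box matches. From the WT-LSK level given above it reached 9.5, 5.37 and 4.79 CPM in the WT-GMP libraries, and in the URE-GMP libraries 7.9, 7.29 and 8.36 CPM. The URE-GMP libraries lay below WT-GMP replicate 1 and above the other WT-GMP libraries. URE over WT in GMP was 0.27 (adjusted p = 0.356), and 0.59 (adjusted p = 0.0345) without that replicate. The step was 4.52 (SE 0.34, adjusted p = 1.1e-07) in WT and 3.74 (SE 0.30, adjusted p = 4.01e-08) in URE. At +33.8 kb the WT step was 2.74 (SE 0.25, adjusted p = 5.14e-07). The weak region at +13.9 kb had steps of 2.93 (SE 0.45, adjusted p = 4.77e-05) in WT and 3.75 (SE 0.36, adjusted p = 2.06e-07) in URE. At +31.7 kb the URE step was 3.81 (SE 0.31, adjusted p = 4.24e-08), from the low URE-LSK level.

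The upstream pair was called higher in URE-GMP than in URE-LSK, from very low levels. The step was 1.03 (SE 0.38, adjusted p = 0.0236) at -20.3 kb, where the cell types overlapped, and 1.21 (SE 0.41, adjusted p = 0.0153) at -19.6 kb. At -20.3 kb the value was under the limit without any 1 WT library, without URE-LSK replicates 1 or 3, or without URE-GMP replicate 2, which gave 0.54 (adjusted p = 0.22). At -19.6 kb the call was lost without URE-LSK replicate 3, at 0.92 (adjusted p = 0.0784), or URE-GMP replicate 2, at 1.0955 (adjusted p = 0.0556).

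The one member called lower in GMP was at +66.7 kb, next to the start of Slc7a10, which encodes an amino acid transporter. WT-LSK libraries held 1.99, 1.51 and 2.47 CPM and URE-LSK libraries 2.38, 2.57 and 1.75. For GMP, WT libraries gave 1, 0.608 and 0.599 CPM and URE libraries 1.03, 1.04 and 0.945. All GMP libraries lay below all LSK libraries. The step was -1.495 (SE 0.29, adjusted p = 0.000388) in WT and -1.14 (SE 0.27, adjusted p = 0.00139) in URE.

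**Figure D4:**
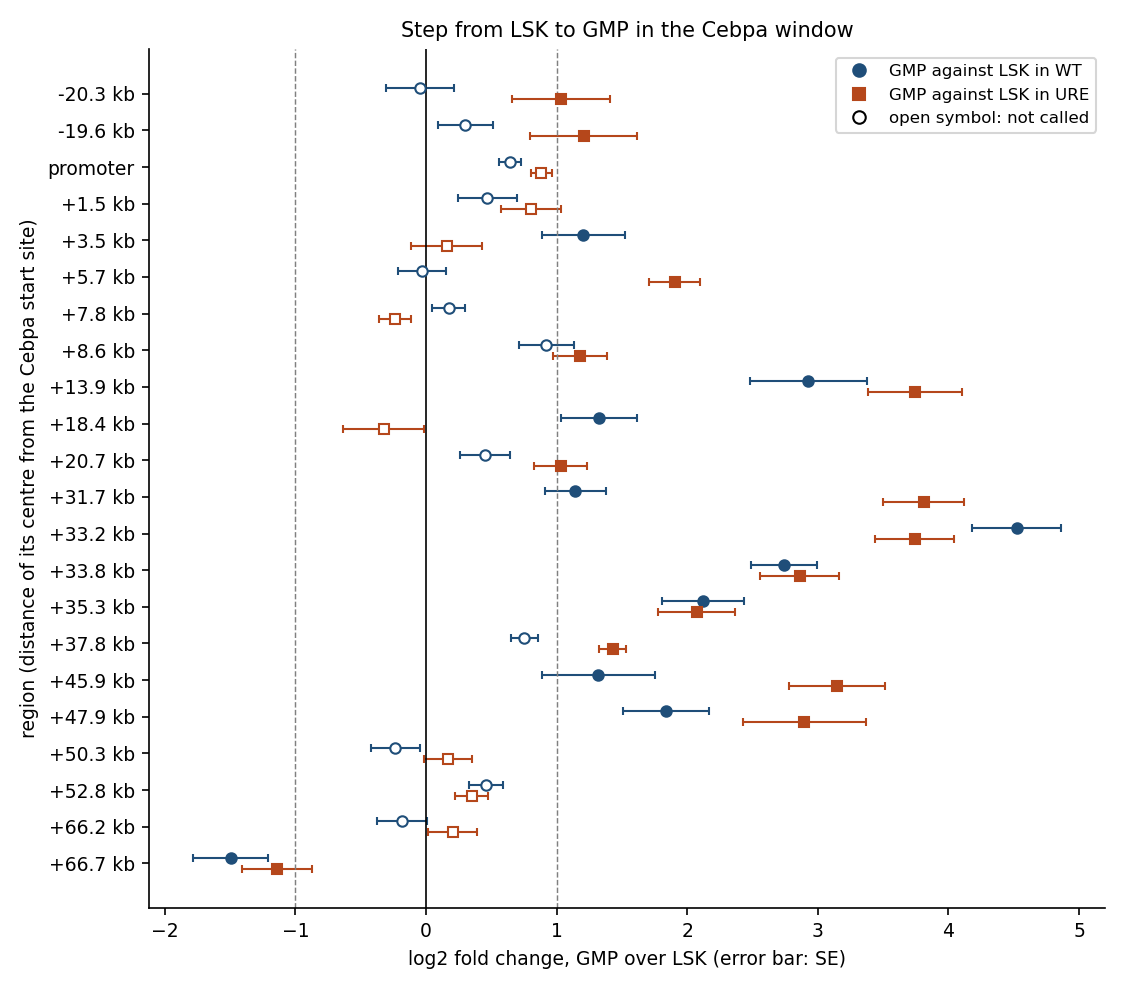
log2 fold change of GMP over LSK in WT (blue circles) and URE (orange squares) for the 22 regions, drawn as in the plot of genotype contrasts. The regions from +31.7 to +47.9 kb all lie to the right of 0 in both genotypes, and +66.7 kb lies to the left in both.

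Whether the genotype effect differed between the cell types was tested directly, as the log2 fold change of URE over WT for GMP less that for LSK. Of 22 regions 4 were called, 3 with a positive difference, where 8.93% of all regions tested were, and 1 with a negative one, against 5%. The positive calls were +5.7 kb with 1.93 (SE 0.26, adjusted p = 0.000203), +31.7 kb with 2.67 (SE 0.39, adjusted p = 0.000352) and +45.9 kb with 1.83 (SE 0.59, adjusted p = 0.044). The negative call was +18.4 kb with -1.65 (SE 0.43, adjusted p = 0.0148). The call at +45.9 kb was lost without any 1 library other than URE-LSK replicate 3. At +37.8 kb the difference was 0.68 (SE 0.15, adjusted p = 0.0048), under the fold limit. At the promoter it was 0.24 (SE 0.12, adjusted p = 0.175), and 0.39 (adjusted p = 0.00519) without WT-GMP replicate 1.

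The signal at +37.8 kb was also taken as a ratio to the promoter within each library, which scaling by a single factor per library cannot move, although offsets set by region could. The WT-LSK libraries had ratios of 0.438, 0.439 and 0.525, and their URE-LSK counterparts 0.36, 0.365 and 0.478. The WT-GMP libraries had ratios of 0.47, 0.51 and 0.537, and their URE-GMP counterparts 0.573, 0.567 and 0.618. Each URE-GMP library lay above all the others, and the LSK genotypes overlapped. Group means were 0.467 ± 0.0499 for WT-LSK, 0.401 ± 0.0668 for URE-LSK, 0.506 ± 0.0339 for WT-GMP and 0.586 ± 0.0276 for URE-GMP (SD, n = 3), described here without a test. The 22 regions together held 203 ± 4.43 CPM for WT-LSK, 173 ± 8.8 for URE-LSK, 305 ± 32.3 for WT-GMP and 331 ± 5.99 for URE-GMP, and WT-GMP replicate 1, at 342 CPM, stood above the other WT-GMP libraries, both at 286.

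**Figure D5:**
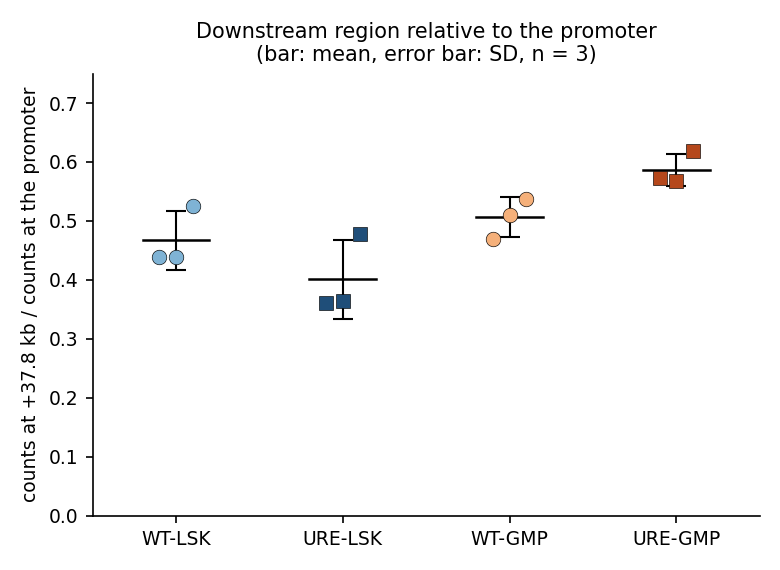
Counts at +37.8 kb divided by counts at the promoter in each library, for the 4 groups, with the group mean as a bar and 1 SD as error bar (n = 3). The 3 URE-GMP libraries lie between 0.567 and 0.618, above all other libraries.

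Over the 12 libraries, log2 CPM at +37.8 kb followed the promoter with Pearson r = 0.958, a description over libraries that fall into 4 groups. The promoter's r was 0.964 with +33.2 kb, 0.941 with +8.6 kb and 0.922 with +35.3 kb, whereas it was -0.044 with -20.3 kb and -0.771 with +66.7 kb. Among 14196 promoter regions of protein-coding genes elsewhere, those most like the Cebpa promoter included those of Gpr160, Tent5a, S100a1 with S100a13, and 4930558K02Rik with Pigc (r from 0.987 to 0.992). The 5 most like the +37.8 kb region were those of S1pr3, Adcy3, Plxnd1, Akt2 and Atp8b4 (r from 0.983 to 0.989).

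Other genes of the pathway were read at 1 region each, the one with the most counts of those up to 5 kb from a start site. Of 16 genes for factors that bind the Cebpa locus or control the protein, 1 was called lower in URE-LSK and none in URE-GMP. Over all regions 23.9% and 24.1% were called lower, and none of the 16 was higher, beside 13.6% and 15.6%. The median log2 fold change of the 16 was 0.24 in LSK and 0.12 in GMP. The gene called was Spi1 itself, whose promoter region was at -2.65 (adjusted p = 2.18e-07) in LSK and at -0.52 (adjusted p = 0.0552) in GMP. Its mean CPM was 35.2 for WT-LSK and 5.64 for URE-LSK, then 35.7 for WT-GMP and 24.9 for URE-GMP. The Spi1 effect differed between cell types by 2.13 (adjusted p = 0.000502), as did that of no other gene of the list past both limits. Trib1, whose product targets C/EBP alpha for degradation, held 93.4 CPM as the mean of WT-LSK, 121 of URE-LSK, 144 of WT-GMP and 199 of URE-GMP, with no call. Runx1, a factor of the downstream enhancer, was at 0.33 (adjusted p = 0.0177) in LSK and 0.02 (adjusted p = 0.896) in GMP, also not called. In the step to GMP none of the 16 was called in WT, and in URE Spi1 was called higher and Meis1, a homeobox gene of early progenitors, lower with -1.49 (adjusted p = 2.52e-08). Over all regions 37.8% were called in that step in WT and 49.1% in URE.

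Of 12 granulocyte genes that depend on C/EBP factors, 11 had a region. In LSK 3 were called higher in URE and in GMP 3, beside 13.6% and 15.6% of all regions, and none lower, with medians of 0.03 and 0.46. The same 3 were called in both, Camp, Ctsg and Ngp, which encode neutrophil granule proteins. Ctsg, for the protease cathepsin G, held 3.32 CPM as the mean of WT-LSK, 12.7 of URE-LSK, 48.4 of WT-GMP and 105 of URE-GMP, with 1.93 (adjusted p = 5.72e-06) in LSK and 1.12 (adjusted p = 0.000267) in GMP. Camp had 1.53 (adjusted p = 0.00081) and 1.78 (adjusted p = 9.74e-06) in that order, and Ngp 1.79 (adjusted p = 0.00844) and 2.32 (adjusted p = 9.21e-06). Both LSK calls came from low levels, for Camp 0.504 CPM on average in WT and 1.42 in URE, and for Ngp 0.124 and 0.467. Under the fold limit in LSK, Ltf, for lactotransferrin, was at -0.98 (adjusted p = 0.000261), Elane, for neutrophil elastase, at -0.29 (adjusted p = 0.031) and Prtn3, for proteinase 3, at -0.23 (adjusted p = 0.0176). Mpo, for myeloperoxidase, held 195 CPM on average in WT-GMP and 340 in URE-GMP and was not called (0.80, adjusted p = 0.0612). From LSK to GMP 6 were called higher and 1 lower in WT, beside 21% and 16.8% of all regions. In URE 6 were called higher, beside 27.6%, and none lower, beside 21.6%.

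None of the 5 other C/EBP genes was called between genotypes in either cell type, where 37.5% of all regions were in LSK and 39.7% in GMP. Cebpe, which acts in late neutrophil maturation, held 5.58 CPM as the mean of WT-LSK, 4.01 of URE-LSK, 29.9 of WT-GMP and 43.4 of URE-GMP, and its genotype effect differed between cell types by 1.03 (adjusted p = 0.0315). From LSK to GMP Cebpe was called higher in both genotypes and Cebpd in URE with 1.34 (adjusted p = 4.22e-09), whereas Cebpb, Cebpg and Cebpz were called in no contrast. Of 10 genes next to Cebpa, 9 had a region and none was called in any of the 5 contrasts. Over all regions the step to GMP was called for 37.8% in WT and 49.1% in URE, and a differing genotype effect for 13.9%. Nearest to the limit was Kctd15, with 0.96 (adjusted p = 5.74e-06) in LSK and 0.97 (adjusted p = 6.43e-06) in GMP. The region read for Slc7a10 is the member at +66.2 kb.

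Markers of cell types were read the same way and summed per library. Of those listed, 7 of 8 stem and early progenitor, 6 of 7 GMP and 2 of 4 mast cell and basophil markers had a region. Ly6a, Fcgr3, Fcer1a and Ms4a2 had none and are not in the sums. Calls given for them are between genotypes. Of all regions, 13.6% were called higher and 23.9% lower in LSK, and 15.6% and 24.1% in GMP. The 6 GMP markers summed to 89 to 96.8 CPM for WT-LSK, 83.3 to 130 for URE-LSK, 339 to 453 for WT-GMP and 575 to 627 for URE-GMP, and 1 was called higher in URE in each cell type. Mpo (mean 195 CPM in WT-GMP, 340 in URE-GMP) and Ctsg (48.4 and 105) made most of the GMP difference. Csf3r (24.9 and 32.8) and Prtn3 (45.2 and 52.2) rose less, Elane (59.7 and 61.6) hardly, and Ms4a3 was lower (14.2 and 10.1). The 7 stem and early progenitor markers, none called between genotypes, summed to 332 to 349 CPM for WT-LSK, 342 to 396 for URE-LSK, 254 to 292 for WT-GMP and 268 to 278 for URE-GMP. For 6 late neutrophil markers the GMP sums were 37.7 to 57.6 CPM (WT) and 85 to 99.4 CPM (URE) with 3 called higher, and the LSK sums were 13.1 to 15.6 CPM (WT) and 7.52 to 8.59 CPM (URE) with 2 called higher and 2 lower. The mast cell and basophil markers Cpa3 and Mcpt8 summed to 7.38 to 11.4 CPM (WT) and 23.8 to 30.6 CPM (URE) in LSK, both called higher, and to 9.9 to 13.1 CPM (WT) and 24.8 to 34.5 CPM (URE) in GMP, with Mcpt8 called higher. The 5 monocyte markers summed to 144 to 149 CPM (WT) and 110 to 122 CPM (URE) in GMP with 2 called lower, and to 124 to 133 CPM (WT) and 112 to 125 CPM (URE) in LSK with 1 called lower. The 5 B cell markers summed to 49.6 to 56.1 CPM (WT) and 68.1 to 70.3 CPM (URE) in LSK, and to 69.6 to 78.6 CPM (WT) and 91.1 to 99.4 CPM (URE) in GMP, with Cd79a called lower in both. The 4 T cell markers summed to 72.6 to 82.5 CPM (WT) and 97.2 to 101 CPM (URE) in LSK with Cd3e called higher, and to 70.6 to 79.7 CPM (WT) and 95.6 to 99.6 CPM (URE) in GMP with none called. The 5 megakaryocyte markers summed to 102 to 121 CPM (WT) and 137 to 147 CPM (URE) in LSK with none called, and overlapped in GMP, where Pf4 was called lower. The 5 erythroid markers summed to 68.3 to 74.1 CPM (WT) and 74.8 to 81.8 CPM (URE) in LSK and overlapped in GMP, with Gata1 called lower in both, at -2.54 in each, and Hbb-bt lower in GMP. No marker region had a group mean of 0. The part of these shifts in the differences at the Cebpa locus was not tested.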

How the data were processed

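ATAC-seq (OmniATAC protocol) was measured in 12 libraries of sorted bone marrow cells, 3 in each of 4 groups. Groups and replicate numbers came from the sample labels, and the methods give 3 mice per genotype and cell type. The deposited table held raw counts as whole numbers, made by the authors as follows. Per the study's methods and the submitters' processing notes (cutadapt, Bowtie2, Genrich, bedtools, featureCounts), the authors trimmed and aligned reads to GRCm38, dropped duplicates and reads outside the primary chromosomes, called peaks per group, merged them and counted reads. Versions of tools other than Genrich are not given in the sources used here, nor is whether fragments or read ends were counted. A merged region need not be open in each group. Starts in the table were taken as 0-based and are printed from 1.

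Members were the regions inside the stated window. Members and gene lists were chosen with earlier results of these data known. In R 4.3.3, edgeR 4.0.16 (with limma 3.58.1) was fitted to all 121336 regions and 12 libraries with TMM scaling, filterByExpr, which removed 0 regions, and the robust quasi-likelihood F test, two-sided, with 1 coefficient per group and Benjamini-Hochberg adjustment over all regions. SE is the absolute log2 fold change over the square root of F. The regions named were the promoter, those 35 to 39 kb downstream, the 3 with the highest mean CPM, and in each of 5 contrasts the 4 called members with the smallest p in each direction. Promoters most like the locus were sought among regions up to 500 bp from a start site with a mean CPM of at least 5. Of the 5 highest r each, 1 promoter is not reported here. Annotation was GENCODE M21. The fit was tested on simulated counts. Replicates of a group differed by more than counting noise (chi-square per degree of freedom from 3.22 to 11.7 over 12 pairs), so all were counted.

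Deviations of same-numbered WT-GMP and WT-LSK libraries from their group means correlated over regions (r = 0.181, 0.191, 0.207), each above the 0.1 taken to show pairing, whereas the other 3 pairs of groups each had a replicate at or under 0.1. Alternatives were DESeq2 1.42.0, other scalings and filters, other call limits, a replicate block and leaving out each library.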

Additional observations from a re-analysis of the deposited data

Results flagged for a closer look

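Regions whose genotype effect differed between the cell types by the direct test were +5.7 kb, where the log2 effect in GMP exceeded that for LSK by 1.93, +31.7 kb, by 2.67, and +45.9 kb, by 1.83, a call lost without any 1 library other than URE-LSK replicate 3. At +18.4 kb the difference was -1.65. Groups of 3 libraries were too small for a check of single outlying libraries.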

How the results depend on the processing

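The numbers of called regions in the Cebpa window stayed within 1.5 times the reported ones under DESeq2, RLE size factors, library size only, loess offsets, GC content offsets and no filter, in all 5 contrasts. With a mean CPM of at least 2, 15 of the 22 regions were tested, and 3 were called in GMP, 3 in the WT step, 9 in the URE step and 2 in the interaction, against 8, 10, 14 and 4. With glmTreat 5 were called in the WT step, 9 in the URE step and 2 in the interaction. Without a fold limit 15 were called in GMP, 9 higher and 6 lower, and over all regions 48.7% of such calls were higher, against 39.4% with the limit. Leaving out 1 library gave 7 to 9 calls in LSK, 8 to 9 in GMP, 8 to 10 in the WT step, 12 to 14 in the URE step and 3 to 5 in the interaction. The mean ratio of the +37.8 kb region to the promoter then ranged from 0.439 to 0.482 for WT-LSK, 0.362 to 0.421 for URE-LSK, 0.49 to 0.524 for WT-GMP, and 0.57 to 0.596 for URE-GMP.

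With the replicate block 9, 8, 10, 14 and 4 regions were called in LSK, GMP, the WT step, the URE step and the interaction, the same members as without it. For the other pairs of groups, pairing was not taken as shown, because a replicate of each was at or under 0.1. Single replicates there still reached r = 0.349 (URE-GMP and WT-GMP, replicate 3) and 0.273 (URE-GMP and URE-LSK, replicate 2). Whether these libraries share a batch was not tested.

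Some log2 fold changes, none of them called, turned in sign. At the promoter in LSK (-0.0006) the value was 0.0459 with DESeq2, 0.0454 with RLE size factors, 0.0006 with the replicate block, 0.0065 when URE-LSK replicate 1 was left out and 0.0017 when replicate 3 was. Leaving out each library in turn gave -0.106 to 0.0065 there. At the promoter in GMP it was -0.0195 with loess offsets. The +37.8 kb region in LSK was at 0.0908 with GC content offsets and at 0.0864 with the replicate block added. The +18.4 kb region in LSK was at 0.61 with loess offsets, 0.0662 with GC content offsets and 0.059 with the replicate block added, and the +45.9 kb region in LSK at -0.1795 without URE-LSK replicate 3, with a range of -0.1795 to 0.5569 over the libraries left out. The cause was not tested. Of the other values of single regions under alternatives, 1106 kept direction and call, 47 lost the call and 32 gained it.

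The median log2 fold change of all regions was 0.14 in LSK and 0.06 in GMP. It was 0.02 and -0.06 with library size only, and 0.28 and 0.20 with GC content offsets. Regions under 1 CPM rest on few counts per library, which limits small differences there.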
